A study of Saccharomyces cerevisiae with 39 samples.

Results

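Rapid removal of the transcription factor Abf1 from the yeast nucleus was followed by 81 genes whose synthesis stood close to the starting level at 30 min and at least 1.5 times above it at 75 and 90 min. These genes were chosen from the table of read counts of 4-thiouracil (4tU) labelled RNA, in which counts were scaled to 1000000 per library (CPM) and averaged over 3 replicates. A gene entered when its mean in the tagged strain was at least 10 CPM at 90 min, at most 1.25 times the 0 min mean at 30 min, and at least 1.5 times the 0 min mean at both 75 and 90 min. The rule took 81 of 6420 features, of which 71 were protein-coding genes and 10 were small nucleolar RNAs (snoRNAs), and all 81 were among the 5722 features that passed the filter on low counts.

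Nuclear depletion used the anchor-away system in Saccharomyces cerevisiae BY4742 (MATalpha). Both strains carried tor1-1 and fpr1del, which desensitise cells to rapamycin, and RPL13A-FKBP12-NAT, a ribosomal protein that serves as the anchor. The Abf1 anchor-away strain, called tagged here, also carried Abf1-FRB-yEGFP-3V5-hphMX4, whereas the parental strain (WT) had untagged Abf1. The tagged strain was sampled after 5, 10, 15 and 20 min of 7.5 µM rapamycin, then every 10 min up to 60 min, and after 75 and 90 min, as well as at 0 min, for which it received DMSO, the solvent, for 90 min. WT was sampled after 90 min of rapamycin (WT 90 min) and after 90 min of DMSO (WT 0 min). Each of the 13 groups had 3 libraries, all from cells given 5 mM 4tU for 6 min, so that the reads come mainly from RNA made in that window.

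Abf1 is a general regulatory factor, an abundant DNA-binding protein that keeps promoters free of nucleosomes, many of them those of genes for protein synthesis and other housekeeping work. The 81 genes are of several kinds. They include genes of redox defence, which in yeast answer largely to the bZIP factor Yap1, genes of the proteasome, which answer largely to Rpn4 through a promoter element named the proteasome-associated control element, and snoRNAs, the guides that direct modification and cleavage of ribosomal RNA in the nucleolus. No spike-in was used, so every level is a share of the RNA in its library, and a gene made more and a fall in the remaining RNA cannot be told apart.

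Library totals lay between 3500982 and 11266408 counts, with a median of 5467295. FPR1, which is deleted, had 0 counts in all 39 libraries, and ABF1 stood at 666 to 1029 CPM in tagged libraries, against 310 to 385 CPM in WT libraries. For 181 of 5393 features the range of the 11 tagged libraries that carry replicate number 1 did not overlap the range of the 22 libraries of numbers 2 and 3, with 114 lower and 67 higher, whereas no feature was apart in this way for number 2 or 3. The genes concerned include alpha-specific ones such as MFALPHA2, at 71.8 to 228 CPM in number 1 and 262 to 826 CPM in numbers 2 and 3. None of the 81 genes was among the 181. Compared time by time, however, number 1 was the lowest of the 3 libraries at all 11 times for AMS1, GTT1, PAU4, FKS3 and HST2 and the highest at all 11 for GAL1 and ECM29, 7 of the 81 genes, as it was lowest for 386 and highest for 306 of the 5393 features. Counts of called genes over all 81 are also given without the 11 libraries where this changes them.

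By construction the ratio of the 30 min to the 0 min mean was 0.894 to 1.25 over the 81 genes (median 1.14). For 75 min it was 1.50 to 2.15 (median 1.58) and for 90 min 1.51 to 3.34 (median 1.77). Their levels at 90 min spanned 10.4 to 3309 CPM, with a median of 66.0. The 75 and 90 min limit was only just met by YKE4, a zinc transporter, by the peroxidase HYR1 and by the mitochondrial pyruvate carrier subunit MPC2, whose lower ratios of 1.502, 1.503 and 1.504 compare with 1.496, 1.495 and 1.493 for NCR1, CMR2 and GAP1 just outside. The 30 min limit was only just met by YSF3, FLO11 and TRX2, at 1.2497, 1.247 and 1.245, against 1.2567, 1.257 and 1.258 for NHP6B, FIT1 and FMP33. Membership depended on single libraries. Leaving out 1 of the 12 libraries that the rule used gave between 64 and 131 genes, with 43 of the 81 kept at the fewest, and 8 of the 81 met the rule in all 12 cases. The highest number, 131, came without number 2 at 30 min.

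Relative to the mean of the 5, 10, 15 and 20 min groups, the group means of the protein-coding genes climbed in small steps. Those of the snoRNAs dipped first, although the libraries differed at 60 min, as given below. After 30, 40 and 50 min the 71 protein-coding genes had median log2 ratios of 0.11, 0.17 and 0.30, and after 60, 75 and 90 min of 0.37, 0.59 and 0.71. The 10 snoRNAs had -0.06, -0.49 and -0.34, then -0.37, 0.59 and 0.99, at the same times. A level of 1.5 times the 5 to 20 min mean, held at every later time, was first reached by 3 genes at 50 min and by 6 at 60 min. Another 35 first reached it at 75 min and 21 at 90 min, while 16 did not reach it. At a ratio of 1.25 instead, 38 genes had reached a lasting level by 60 min. The 0 min group lay below the 5 to 20 min mean, with a median of -0.12 over the protein-coding genes and -0.24 over the snoRNAs. It lay above that mean for 6 of the 71 protein-coding genes and for none of the snoRNAs. Over all tested features the 0 min median was -0.05. The rule chose genes by their 0, 30, 75 and 90 min means, so the values and counts at these times were partly set by it.

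**Figure D1:**
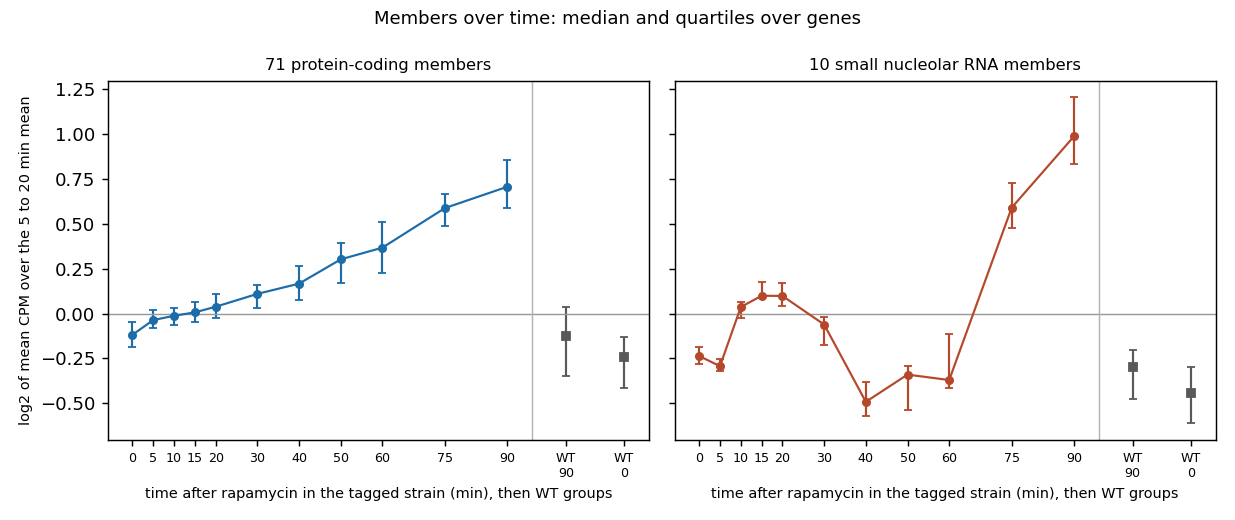
Median and quartiles over genes of the log2 ratio of group mean CPM (TMM-normalized, plus 0.5) to the mean of the 5, 10, 15 and 20 min groups, for 71 protein-coding genes (left) and 10 snoRNAs (right), against minutes after rapamycin in the tagged strain, with the WT groups as squares. The protein-coding median is 0.37 at 60 min and 0.71 at 90 min, and the snoRNA median is -0.37 at 60 min and 0.99 at 90 min.

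The 60 and 20 min groups were not used by the rule, and their comparison asks how far the change had gone before 75 min. At 60 min, 3 of the 81 genes were higher than at 20 min at an adjusted p under 0.01 and a fold change over 1.5, the criteria for a call here (edgeR's quasi-likelihood test, Benjamini-Hochberg adjustment), and none was lower. These 3 were SER3, ATF1 and SSA3. Of all 5722 features, 0.245% were called higher and 1.19% lower in the same comparison. With no fold limit, 7 of the 81 genes passed the adjusted p, the other 4 being CYM1, REH1, YAP1 and HER1, against 0.664% of all features higher and 1.57% lower. Log2 fold changes were positive for 66 of the 81 genes, with a median of 0.28, against -0.01 over all features. In 29 genes all 3 libraries at 60 min lay above all 3 at 20 min, and in 1 gene all lay below, where 10.0% of all features lay above and 10.9% below. With the replicate number as a block, which the tagged libraries warrant, 7 genes were called (AMS1, ATF1, ECM29, GAL1, SER3, SRO77 and THI72). Without the 11 tagged libraries of number 1, 5 were called. The shares above are those of the unblocked fit with all libraries, and the shares of all features in these other fits are not given. With only the 6 compared libraries in the fit, none was called, and leaving out 1 of these 6 gave 1 to 4 calls, with 1 call left without number 1 or 2 at 20 min or number 2 at 60 min.

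SER3, which encodes the enzyme of the first step of serine synthesis (YER081W, chrV:322686-324095, plus strand), had 94.7, 124 and 106 CPM at 60 min in libraries 1, 2 and 3, against 64.2, 66.3 and 61.3 CPM at 20 min. The lowest library at 60 min stood well above the highest at 20 min, and the 20 min libraries lay close together. The log2 fold change was 0.76 ± 0.13 (SE, adjusted p = 0.00039). SRG1, a non-coding RNA transcribed across the SER3 promoter and known to keep SER3 off, lies on the same strand and overlaps the gene in the annotation, so reads of the overlap cannot be assigned to one of the pair.

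ATF1 makes acetate esters from alcohols (YOR377W, chrXV:1046226-1047803, plus strand). It had 145, 175 and 147 CPM at 60 min and 101, 99.7 and 109 CPM at 20 min, a log2 fold change of 0.59 ± 0.11 (SE, adjusted p = 0.0010). SSA3 is a stress-induced cytosolic chaperone of the Hsp70 family (YBL075C, chrII:84499-86448, minus strand). It had 360.3, 409.7 and 353 CPM at 60 min and 254, 225 and 267 CPM at 20 min, a log2 fold change of 0.59 ± 0.12 (SE, adjusted p = 0.0029). Libraries of the groups did not overlap for either gene, and number 2 was the highest at 60 min in both. SSA3 has a close relative, SSA4, and reads that fit both genes make its level uncertain. SSA3 was not called with the replicate block or without the tagged number 1 libraries, where its log2 fold changes were 0.58 and 0.62. ATF1 was called in both of these fits but not with library totals in place of TMM factors.

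The other 4 genes that passed the adjusted p changed by less than 1.5 times. CYM1 encodes a mitochondrial protease that degrades cleaved targeting peptides, and its log2 fold change was 0.50 ± 0.06 (SE, adjusted p = 1.5e-06). REH1, which acts in late maturation of the large ribosomal subunit, had 0.46 ± 0.08 (SE, adjusted p = 0.00052). YAP1 itself had 0.51 ± 0.10 (SE, adjusted p = 0.0010), and HER1, whose biochemical function is not known, had 0.50 ± 0.09 (SE, adjusted p = 0.00068). In all 4 the libraries of the 60 min group lay above those of the 20 min group, with 941, 1048 and 972 CPM for YAP1 at 60 min, against 681, 662 and 730.1 CPM at 20 min.

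**Figure D2:**
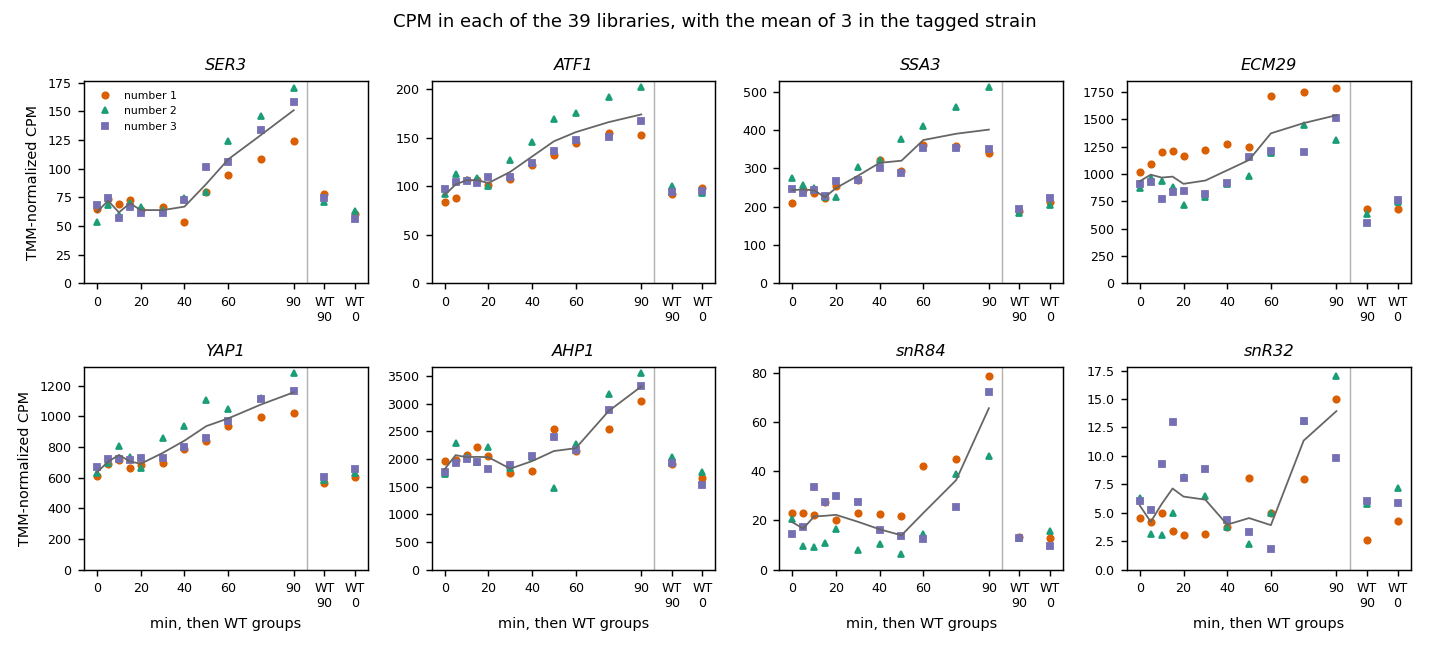
TMM-normalized CPM in each of the 39 libraries for 8 genes, against minutes after rapamycin in the tagged strain and then the WT groups. Points are coloured by replicate number and the line joins the tagged group means. SER3, ATF1 and SSA3 lie higher in all 3 libraries at 60 min than at 20 min, ECM29 is higher in number 1 than in numbers 2 and 3 at 60 min, and snR84 reaches 46.0 to 78.7 CPM at 90 min.

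At earlier times fewer genes passed the test. Between 50 and 20 min edgeR called 0 of the 81 genes and DESeq2 called 0, with 23 higher and 1 lower at an unadjusted p under 0.05, against 6.29% of all features higher and 7.55% lower, and a median log2 fold change of 0.24. THI72, a transporter related to thiamine carriers, was called with the replicate block. The background was 0.0699% of all features called higher and 0.786% lower. Between 40 and 20 min both tools called 0, with 8 higher and 1 lower at an unadjusted p under 0.05, against 2.27% and 5.49% of all features. The median was 0.11, and the background of calls was 0.035% higher and 0.472% lower. Between 20 and 5 min both tools again called 0, with 3 higher and 0 lower at an unadjusted p under 0.05, against 3.98% and 11.2% of all features, so that the share higher was near the background. The median was 0.10 over the 81 genes and 0.03 over all features, and the background of calls was 0.245% higher and 6.22% lower. By replicate number, the median change of 60 over 20 min was 0.27, 0.26 and 0.32 for numbers 1, 2 and 3, whereas that of 50 over 20 min was 0.31, -0.00 and 0.30. The median of number 2 at 50 min was thus near 0, below those of the other 2.

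In WT, rapamycin against DMSO asks what the drug did without depletion. edgeR called 0 of the 81 genes and DESeq2 called 0, and 0.0% of all features were called in either direction. At an unadjusted p under 0.05, 9 of the genes were higher and 2 lower, against 3.91% and 4.89% of all features. Log2 fold changes were positive for 57 of the 81 genes, with a median of 0.10, against -0.00 over all features. Leaving out 1 library moved this median between 0.06 and 0.17. In 22 genes all WT 90 min libraries lay above all WT 0 min libraries and in 12 all lay below, where 15.7% of all features lay above and 19.6% below.

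The difference between the change of 60 over 20 min in the tagged strain and that of WT 90 over WT 0 min was tested directly. It was called for 3 of the 81 genes, all with the larger value in the tagged strain, against 0.227% of all features in that direction and 0.489% in the other. These were HER1 at 0.67 ± 0.13 (SE, adjusted p = 0.0030), CYM1 at 0.64 ± 0.08 (SE, adjusted p = 2.0e-05) and REH1 at 0.61 ± 0.12 (SE, adjusted p = 0.0029). CYM1 had 528, 524 and 549.7 CPM at 60 min and 389, 353 and 393 CPM at 20 min in the tagged strain. It had 327, 328 and 324 CPM in WT 90 min, against 358, 355 and 366 CPM in WT 0 min. All tagged libraries at 60 min were thus above those at 20 min, and all WT libraries with rapamycin were below those with DMSO. The comparison sets 40 min in one strain against a 90 min treatment in the other, so time and strain cannot be told apart. Over the 81 genes the difference had a median of 0.13 and was positive in 47, against a median of -0.02 over all features. Leaving out 1 library moved the median of the 81 between 0.06 and 0.19. With library totals in place of TMM factors none was called and the median of all features moved to -0.13. With the replicate block 9 were called, and without the tagged number 1 libraries 5. The block also ties WT to tagged libraries of the same number. Such pairs of 60 min and WT 90 min libraries deviated with correlations of 0.11, -0.05 and -0.14, so the block is not warranted across strains. The shares of all features above are those of the unblocked fit with all libraries, not of these fits.

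Against WT 90 min, which had the same drug, 23 of the 81 genes were called higher at 60 min in the tagged strain and none lower, where 6.97% of all features were higher and 14.0% lower. Without the 11 tagged libraries of number 1, 27 were called higher. The shares are those of the fit with all libraries. The median log2 fold change was 0.45 over the 81 genes and 0.05 over all features, and in 49 genes the 3 tagged libraries lay above the 3 WT libraries, as did 29.8% of all features. Part of this was there before any rapamycin. In the tagged strain at 0 min, compared with WT 0 min and given as a description since the rule used the 0 min group, the log2 fold change was 1.76 for AMS1, 1.18 for AAD4, 1.07 for AGX1 and 0.14 for the median gene of the 81. At 20 min, 3 of the 81 genes (AAD4, AGX1 and GCG1) were already called higher than in WT 90 min, with a median of 0.17 and a background of 2.17% higher and 10.8% lower. Without the 11 tagged libraries of number 1, the called genes were AAD4, AMS1 and GTT1.

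The genes of redox defence and detoxification form one of the largest groups by role, with 10 members. YAP1 encodes the factor that turns on many peroxide-response genes, and HYR1 the peroxidase that senses peroxide for it. AHP1 (thiol peroxiredoxin), TRX2 (thioredoxin), SRX1 (sulfiredoxin) and GTT1 (glutathione transferase) act in thiol chemistry, GCG1 degrades glutathione, HSP31 and DAK1 act on reactive carbonyl or triose compounds, and AAD4 is a putative aryl-alcohol dehydrogenase. All 10 had a positive log2 fold change of 60 over 20 min, with a median of 0.29 and a range of 0.09 to 0.51, and none was called. In WT the median was 0.11. Against WT 90 min 4 were called higher at 60 min, namely YAP1, AAD4, GCG1 and DAK1, where 6.97% of all features were. At 0 min all 10 already stood above WT 0 min, with a median log2 fold change of 0.19.

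AHP1 was the most abundant of the 81 genes. It had 2151, 2274 and 2162 CPM at 60 min, against 2064, 2221 and 1814 CPM at 20 min, a log2 fold change of 0.11 ± 0.12 (SE, adjusted p = 0.70). The groups overlapped, and the ratio that made AHP1 a member came later, with 2544, 3168 and 2887 CPM at 75 min and 3058, 3556 and 3325 CPM at 90 min. TRX2 behaved alike. It had 647, 669 and 647 CPM at 60 min and 602, 704 and 489 CPM at 20 min, a log2 fold change of 0.13 ± 0.18 (SE, adjusted p = 0.78), and 856, 1179 and 1004 CPM at 90 min. In WT it had 537, 512 and 492 CPM with rapamycin and 340.5, 408 and 321 CPM with DMSO, a log2 fold change of 0.53 ± 0.19 (SE, adjusted p = 0.44).

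AAD4 and AGX1, which encodes alanine:glyoxylate aminotransferase, were called higher than in WT 90 min at both 20 and 60 min. AGX1 lost its call at 20 min without the tagged libraries of number 1. AAD4 had 681, 897 and 827 CPM at 60 min in the tagged strain, against 273, 253 and 254 CPM in WT 90 min, a log2 fold change of 1.63 ± 0.13 (SE, adjusted p = 1.2e-11). AGX1 had 24.1, 34.3 and 20.3 CPM at 60 min, against 10.5, 9.13 and 8.64 CPM in WT 90 min, a log2 fold change of 1.47 ± 0.22 (SE, adjusted p = 1.8e-06). The strains did not overlap for either gene. AMS1, the vacuolar alpha-mannosidase, had 70.1, 147 and 129.7 CPM at 60 min, against 19.1, 17.2 and 19.7 CPM in WT 90 min, a log2 fold change of 2.63 ± 0.55 (SE, adjusted p = 0.00024). Its number 1 library was lower than the other 2 at 60 min and also at 20 min, where it had 29.7, 83.0 and 82.3 CPM. AAD4 belongs to a family of subtelomeric near-copies, and its reads may be shared with them.

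A list of oxidative stress genes, drawn up with earlier results of these data known, places these members among their pathway. It had 28 tested genes, of which 6 are members (AHP1, YAP1, AAD4, TRX2, SRX1 and GTT1). None of the 28 was called between 60 and 20 min in edgeR, with 20 positive and a median log2 fold change of 0.13. Against WT 90 min 4 were called higher and 2 lower at 60 min, where 6.97% and 14.0% of all features were. The letters TTACTAA, a core recognised by Yap1, were searched on both strands in the 300 bases before each annotated start. They were found in 7.41% of the 81 genes and 8.06% of the other genes tested, so the promoters of the members held this core about as often as others. The sites of TRX2, a known target of Yap1, and of GTT1 are shown, with the core in capitals (R64 genome, read 5′ to 3′ on the strand of the gene, which is minus for both).
TRX2 chrVII:913427-913455: tgtttatactcTTAGTAAaggatgctccc
TRX2 chrVII:913391-913419: tggctcttttcTTACTAAgcgcgttcagt
GTT1 chrIX:424661-424689: gctacggccatTTACTAAtgattttcacc

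The proteasome and ubiquitin genes numbered 8. PRE1, PRE3 and PRE5 encode subunits of the catalytic core, RPN12 a subunit of the regulatory particle, NAS6 a chaperone of its assembly and ECM29 a scaffold that joins core and particle, while UBC5 is a ubiquitin-conjugating enzyme and IRC20 a ubiquitin ligase with a helicase domain. Between 60 and 20 min the median log2 fold change was 0.30, with 7 of 8 positive and none called. The median was 0.13 in WT. Against WT 90 min 3 of 8 (UBC5, IRC20 and ECM29) were called higher at 60 min, where 6.97% of all features were. At 0 min all 8 already stood above WT 0 min, with a median log2 fold change of 0.14. Over the 35 tested proteasome subunit genes, 4 of which are members, the median of 60 over 20 min was 0.21, with 28 positive, none called higher and 1 called lower. Against WT 90 min none of the 35 was called higher at 60 min and 10 were called lower, where 6.97% and 14.0% of all features were.

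ECM29 was the member of this group with the highest level. It had 1715, 1187 and 1210.3 CPM at 60 min, against 1167, 715 and 846 CPM at 20 min, a log2 fold change of 0.59 ± 0.20 (SE, adjusted p = 0.080). Number 1 was the highest at both times, and its 20 min value came close to those of numbers 2 and 3 at 60 min. With the replicate block, ECM29 was called. IRC20 had 1100.2, 851 and 822 CPM at 60 min and 778, 526 and 653 CPM at 20 min, a log2 fold change of 0.50 ± 0.16 (SE, adjusted p = 0.073). The groups did not overlap, with number 2 lowest at 20 min. RPN12 had 182, 193 and 213 CPM at 60 min and 157, 162 and 144 CPM at 20 min, a log2 fold change of 0.35 ± 0.10 (SE, adjusted p = 0.041). Its groups did not overlap either. The core subunit genes had smaller log2 fold changes of 0.14 for PRE1, 0.26 for PRE3 and 0.21 for PRE5.

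The proteasome element was searched as GGTGGCA on both strands in the same 300 bases. It was present in 6 of the 81 promoters (7.41%), against 2.74% of the other genes tested. The sets most like the members, described below, held it in 4.29% of 140 and 3.77% of 106 genes. The 6 genes were PRE1, PRE3, RPN12, ECM29, REH1 and YAP1, and YAP1 had the element in both orientations. Among the 6, the median log2 fold change of 60 over 20 min was 0.40, and over the other tested genes with the element it was 0.12. The 6 were chosen for a late rise and the others were not, and the part of the element was not tested. The sites are shown because the element was found before genes of different roles, with the element in capitals (R64 genome, 5′ to 3′ on the strand of the gene).
PRE1 chrV:177682-177710: gaaatctttacGGTGGCAaaaaataaaga
PRE3 chrX:435034-435062: caacggaatccGGTGGCAaaaaagggaaa
RPN12 chrVI:252399-252427: tacacattattTGCCACCcattgaaattg
ECM29 chrVIII:39942-39970: tgccttttcttGGTGGCAaaaaaaaggta
REH1 chrXII:897747-897775: agtcacaagacGGTGGCAacacagttgta
YAP1 chrXIII:253611-253639: aagagtaggagGGTGGCAactgatggatg
YAP1 chrXIII:253793-253821: gggaagtttttTGCCACCcaaaacgttta

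The snoRNAs took a different course. The 10 members are snR84, snR42, snR34, snR35, snR32 and snR31, which are H/ACA guides of pseudouridylation, snR63, snR41 and snR45 of the C/D class, and snR17b, 1 of 2 genes for U3, which acts in cleavage of the ribosomal RNA precursor. Between 60 and 20 min 9 of the 10 had a negative log2 fold change, with a median of -0.40 and none called by edgeR. The 68 other snoRNA and snRNA features had a median of -0.44, with 9 positive. The lower group value at 60 min was thus shared by the class. Among the members it was not seen in number 1, where all 10 were higher at 60 than at 20 min. In number 2 all 10 were lower, and in number 3 all but snR41 were. snR63 had 31.7, 18.7 and 13.1 CPM at 60 min in numbers 1, 2 and 3, against 20.7, 33.1 and 34.3 CPM at 20 min. At 90 over 0 min, which the rule used, the members had a median of 1.26 and the other 68 had 0.06.

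snR84, the highest fold of these at 90 min, had 42.1, 14.4 and 12.5 CPM at 60 min, against 20.0, 16.7 and 30.1 CPM at 20 min, a log2 fold change of 0.05 ± 0.48 (SE, adjusted p = 0.98). Number 1 stood apart at 60 min and the groups overlapped. At 90 min snR84 had 78.7, 46.0 and 72.3 CPM, against 22.9, 20.4 and 14.5 CPM at 0 min. snR32 had 4.96, 4.97 and 1.79 CPM at 60 min, against 3.08, 8.11 and 8.07 CPM at 20 min, a log2 fold change of -0.73 ± 0.51 (SE, adjusted p = 0.47) and the lowest of the 81 genes. Its groups also overlapped, and number 1 was lowest at 20 min. The next lowest were snR35 at -0.63 ± 0.40 (SE, adjusted p = 0.42), snR45 at -0.53 ± 0.38 (SE, adjusted p = 0.48) and snR34 at -0.51 ± 0.49 (SE, adjusted p = 0.63). snR17b had 41.6, 8.58 and 6.87 CPM at 60 min, and its near-identical copy snR17a makes the level uncertain.

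The 3′ ends of 4 of the snoRNAs are shown to make the classes visible, as the last 30 bases of the annotated gene in DNA letters. Capitals mark the ACA box of the H/ACA class, which lies close to the end, and CTGA, the D box of the C/D class.
snR84 chrIV:1492477-1492506: ctaaggaacatgactcaaagagacACAtta
snR32 chrVIII:381698-381727: agatattgggaatcagctgtatctACAttt
snR34 chrXII:899353-899382: gaattgggatgtcgaagaaagtctACAtta
snR63 chrIV:323217-323246: cataaccttatagtcatagttacaCTGAtt

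A group labelled by hand as nutrient-repressed, a trait not tested here, held 6 genes: GAL1 (galactokinase), PHO5 (acid phosphatase), THI72, PET18, AMS1 and SPG3. They had the highest median of any role group for 60 over 20 min, 0.71, with 6 of 6 positive and none called by edgeR. DESeq2 called THI72, and the replicate block called AMS1, GAL1 and THI72. Against WT 90 min 5 of 6 were called higher at 60 min, all but PET18, where 6.97% of all features were. At 0 min 5 of the 6 already stood above WT 0 min, with a median log2 fold change of 0.45. GAL1 had 42.5, 30.0 and 29.3 CPM at 60 min, against 23.9, 12.1 and 18.5 CPM at 20 min, a log2 fold change of 0.90 ± 0.28 (SE, adjusted p = 0.054). THI72 had 23.9, 17.8 and 17.6 CPM at 60 min, against 12.8, 9.06 and 10.0 CPM at 20 min, a log2 fold change of 0.89 ± 0.23 (SE, adjusted p = 0.016). For both genes the lowest library at 60 min lay above the highest at 20 min, and number 1 was the highest in each group. PHO5 had 9.21, 10.98 and 11.95 CPM at 60 min, against 6.54, 6.32 and 5.33 CPM in WT 90 min, a log2 fold change of 0.82 ± 0.21 (SE, adjusted p = 0.0024), with no overlap of the strains.

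Genes of amino acid metabolism numbered 4, SER3, AGX1, GDH2 (glutamate dehydrogenase) and LYS20 (homocitrate synthase). All 4 were positive in 60 over 20 min, with a median of 0.56, and SER3 was called. Genes of mitochondria numbered 9, with a median of 0.28, all positive and none called. Their WT median was 0.20, and against WT 90 min 1 of 9, CYM1, was called higher at 60 min, where 6.97% of all features were. The 7 genes of the secretory pathway and membranes had a median of 0.21, with 5 positive. Among them SRO77, which acts in exocytosis, had 148, 134 and 96.5 CPM at 60 min, against 70.4, 79.8 and 85.3 CPM at 20 min, a log2 fold change of 0.69 ± 0.19 (SE, adjusted p = 0.027). The groups did not overlap, and SRO77 was called by DESeq2 and with the replicate block.

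Cell wall and surface genes numbered 5, with a median of 0.27 and 4 positive. CWP2, an abundant mannoprotein, had 282, 169 and 208 CPM at 60 min, against 271, 285 and 227 CPM at 20 min, a log2 fold change of -0.25 ± 0.19 (SE, adjusted p = 0.52). The groups overlapped, and it had 476, 399 and 561 CPM at 90 min. FLO11, the flocculin, had 139, 80.5 and 58.6 CPM at 60 min, against 94.8, 35.5 and 45.3 CPM at 20 min, a log2 fold change of 0.66 ± 0.48 (SE, adjusted p = 0.49). Its libraries were widely spread and the groups overlapped. The remaining groups were the actin regulators COF1 and ARC15, with a median of 0.13, the histone and histone-modifying genes HTA2, NAT4 and HST2, with 0.33, and 17 other genes, with 0.42, of which ATF1 and SSA3 were called. HTA2, TEF2, PMA2, PAU4 and YDR034C-C have near-identical copies, and their levels are uncertain.

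**Figure D3:**
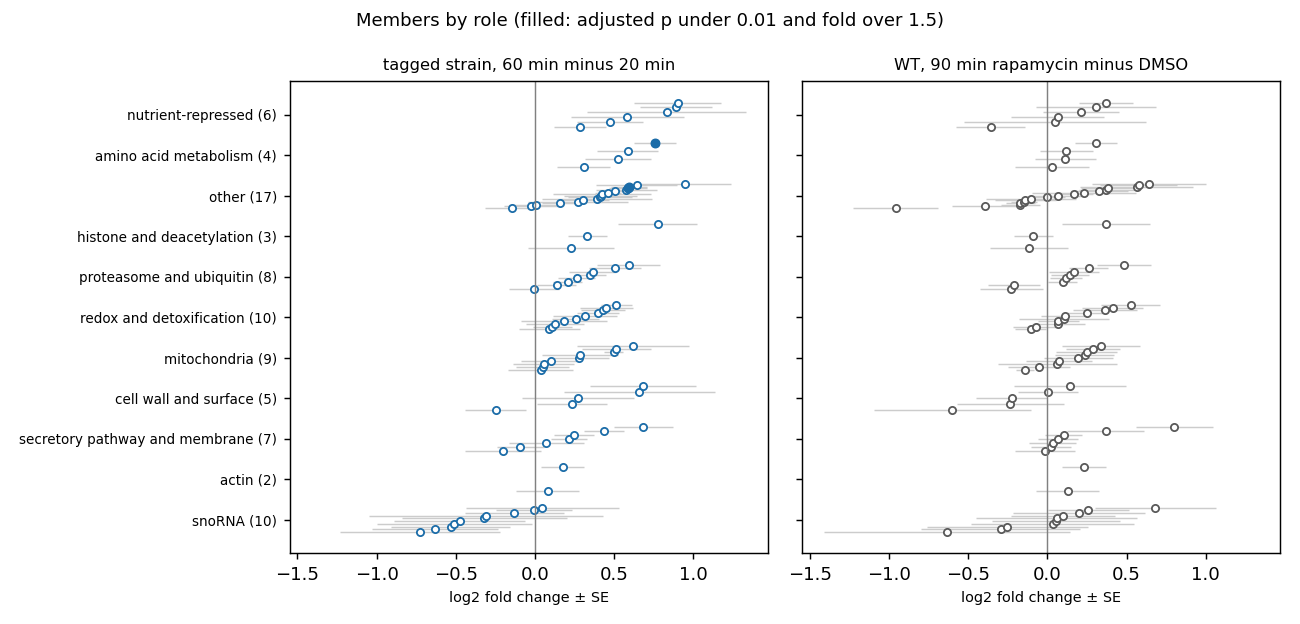
Log2 fold change ± SE (edgeR) of each of the 81 genes, by role, for 60 minus 20 min in the tagged strain (left) and 90 min rapamycin minus DMSO in WT (right), with filled points for called genes. SER3, ATF1 and SSA3 are the 3 filled points, the 10 redox genes all lie above 0 on the left, and 9 of 10 snoRNAs lie below 0.

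Other stress and nutrient pathways were followed with gene lists drawn up with earlier results of these data known. Of 56 general stress genes, 1 of them a member (SSA3), 2 were called higher and none lower between 60 and 20 min. Of the same 56, 36 were called higher than WT 90 min at 60 min, where 6.97% of all features were. Of 28 heat shock genes, among them again SSA3, 1 was called higher and none lower. Of 27 nitrogen catabolite genes, among them GDH2, 1 was called higher and none lower. None was called of 37 cell wall genes (among them CWP2), of 12 seripauperin, DAN and TIR genes (among them TIR4 and PAU4) and of 20 phosphate genes (among them PHO5), with medians of -0.11, 0.25 and -0.01. The 138 cytosolic ribosomal protein genes held no member. Their median was -0.45, with none called higher and 1 lower, against 0.21 in WT.

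Genes with a similar late level but an earlier start differed in degree. The 140 genes at 1.5 times or more at 30, 75 and 90 min had a median of 0.51 for 60 over 20 min with 6 called, and the 106 between 1.25 and 1.5 times at 30 min had 0.32 with 3 called, against 0.28 and 3 for the 81. Against WT 90 min, 28.4% of the 81, 47.1% of the 140 and 38.7% of the 106 were called higher at 60 min. In WT the medians of the 81, the 140 and the 106 were 0.10, 0.15 and 0.11. These are descriptions, since the sets were chosen by their level at 30 min.

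Members were short. Protein-coding members had a median gene length of 714 bp, against 1257 bp for the other 5532 protein-coding genes tested. Protein-coding genes of the 140 and of the 106 were also short, with medians of 930 and 960 bp. Of the 71 members, 30 (42.3%) fell among the shortest 20% of genes, of 78 to 672 bp. Gene length moved with the values. All of the shortest 20% of genes had a median of 0.25 for 90 over 0 min, 0.17 in WT and -0.05 for 60 over 20 min. All of the longest 20% had -0.02, -0.12 and 0.06. Within the members, those among the shortest 20% had medians of 0.13 for 60 over 20 min and 0.27 in WT, and those among the longest 20% had 0.59 and -0.19. The longer members thus had the larger values in the tagged strain and the lower in WT. The part of length in membership was not tested.

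The 81 genes lay on 15 chromosomes. A divergent upstream neighbour was present for 46 (56.8%), against 50.9% of the other genes tested, and 6 (7.41%) lay within 20 kb of a chromosome end, against 2.78%. An upstream neighbour that was called lower at 20 than at 0 min was present for 2 (2.47%), against 7.77%. These 2 were NAS6 beside PHB2 and MRP35 beside TOM70.

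In the promoters, the letters of Abf1 itself were less common and those of Reb1 more common in the 81 genes than in the rest. The Abf1 pattern TCANNNNNNACG was found in the 300 bases before 4 of the 81 genes (4.94%), against 15.7% of the other genes tested, 7.14% of the 140 and 5.66% of the 106. Reb1 is another general regulatory factor, and its core TTACCCG was found in 20 of 81 (24.7%), against 8.17% of the others, 4.29% of the 140 and 16.0% of the 106. Both strands were searched. AGGGG, the stress response element of Msn2 and Msn4, was found in 21.0% of the 81, against 22.3% of the others, 47.1% of the 140 and 37.7% of the 106. GGCGGC (Ume6) was found in 11.1%, against 4.82% of the others, 10.0% of the 140 and 6.6% of the 106. TTACTAA (Yap1), given above for the 81, was found in 9.29% of the 140 and 10.4% of the 106. GAANNTTC (Hsf1) was found in 8.64% against 11.6% of the others and TGACTC (Gcn4) in 4.94% against 7.85%. ACGCGT (MCB) was found in 2.47% against 3.59% and CCGCGG (Pdr) in 0 of 81 against 1.35%. Of the 20 genes with the Reb1 core, 4 are snoRNAs. None of the 10 patterns searched holds another within its fixed letters.

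The Reb1 sites of 8 genes are shown, chosen to cover the proteasome, ubiquitin, redox and snoRNA groups, and the Abf1 pattern of all 4 genes that hold it. Capitals mark the core or the fixed letters of the pattern (R64 genome, 5′ to 3′ on the strand of the gene). The ECM29 site lies next to its proteasome element.
NAS6, Reb1, chrVII:953831-953859: gaatatctctcTTACCCGgctgtcaagta
ECM29, Reb1, chrVIII:39913-39941: gtatttatgtgTTACCCGgtatatccata
UBC5, Reb1, chrIV:569937-569965: gccactgcgagCGGGTAAtaaagcggctg
SRX1, Reb1, chrXI:278063-278091: aaaatatgccgTTACCCGttgcgggtccc
snR42, Reb1, chrXI:559498-559526: aagtgaacttcTTACCCGaagtaagctcg
snR34, Reb1, chrXII:899038-899066: ttcgaaatacaTTACCCGgatcaattcca
snR35, Reb1, chrXV:759653-759681: atattcaactcCGGGTAAtggagatagta
snR45, Reb1, chrXVI:821576-821604: aaatacgaggaTTACCCGtagagaagtgc
CYM1, Abf1, chrIV:1328620-1328649: tttgcccttCGTttacagTGAtaaatatac
NAS6, Abf1, chrVII:953660-953680: CGTtgatagTGAttatgcaac
SEN15, Abf1, chrXIII:390908-390937: atgagatccTCAtctgtcACGaggctgatg
MRP35, Abf1, chrXIV:398534-398563: atttttgttTCAatatacACGtatgcatgt

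**Figure D4:**
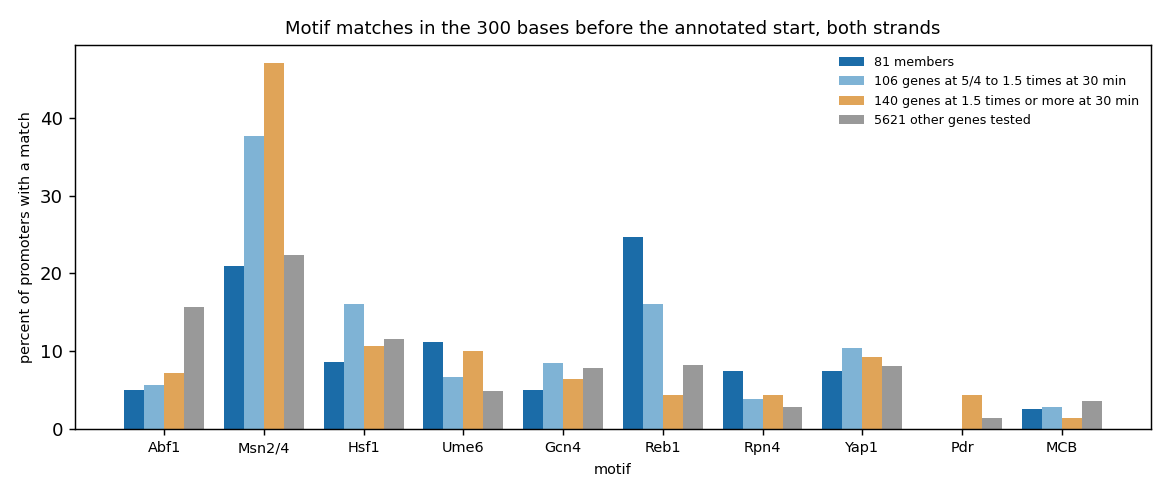
Percent of genes with at least 1 match to each motif on either strand in the 300 bases before the annotated start, for the 81 genes, the 106 genes between 1.25 and 1.5 times and the 140 genes at 1.5 times or more at 30 min, and the 5621 other genes tested. The bars of the 81 genes stand at 24.7% for Reb1 and 4.94% for Abf1, against 8.17% and 15.7% in the other genes.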

How the data were processed

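The data were 4tU-seq libraries of 39 yeast cultures, of which 33 came from the Abf1 anchor-away strain and 6 from its untagged parent, described as biological triplicates in the study's methods. Per the submitters' processing notes, the authors mapped reads to sacCer3 with HISAT2 2.0.5, kept reads unique by molecular identifier and counted them per feature with Subread 1.6.5, and the 2 sequencing runs of a library were summed. The deposited table holds these whole-number counts for 6420 features, 88 of them with no count in any library. A further deposited table of log2 fold changes and adjusted p-values, made by the authors with DESeq2 1.10.1, was not used.

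From the counts, CPM, group means and the rule were computed, and edgeR 4.0.16 (R 4.3.3) fitted all 39 libraries in one robust quasi-likelihood model with TMM factors, after its filter on low counts at a minimum count of 10. SE is the size of the log2 fold change divided by the square root of F. Per-library values are TMM-normalized CPM, and p-values were adjusted over the 5722 features tested. The rule used the tagged 0, 30, 75 and 90 min groups, so no value of a member in them was tested, and calls of 20 over 0 min served only to mark neighbouring genes. The members and the 18 gene lists were chosen with earlier results of these data known, and the lists that hold a member or that the text names are given with their counts. The other 10 lists together are given in the closing section. Genes named one by one were the called members with non-overlapping libraries, the 6 most abundant, the 4 lowest and those at the rule's limits; members named as examples of a role were chosen after their values were seen. Role groups were drawn up by hand after the members were known.

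Replicate numbers were checked for pairing. Same-numbered libraries deviated together in every comparison within the tagged strain, with correlations of 0.10 to 0.77 (for 60 and 20 min, 0.73, 0.43 and 0.24), although number 2 correlated better with another number in 50 against 20 min (0.44 against 0.10) and 20 against 5 min (0.40 against 0.38). Within WT and between strains not every pair passed 0.1, so the blocked fit is given beside tagged comparisons. For the difference between strains it is given only as an alternative, since its pairing of WT with tagged libraries was not borne out. Identifiers were matched to the RefSeq annotation of R64 for 6142 of 6420 features, 6041 by locus tag and 101 by symbol, and sequences come from that genome. Alternatives were DESeq2 1.42.0, other size factors, no filter, the compared libraries only, the replicate block and leaving out libraries, and the tests were checked on simulated data. Depth sets a floor of 3 counts, and with 3 libraries a group p-values reflect the spread between these cultures.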

Additional observations from a re-analysis of the deposited data

Results flagged for a closer look

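For 3 of the 81 genes the change of 60 over 20 min in the tagged strain differed from that of rapamycin over DMSO in WT in edgeR's test of the difference itself. The log2 difference was 0.67 for HER1, 0.64 for CYM1 and 0.61 for REH1, and in all 3 the tagged value was positive and the WT value negative (0.50 against -0.17 for HER1, 0.50 against -0.14 for CYM1, and 0.46 against -0.15 for REH1). The WT changes did not pass the test.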

How the results depend on the processing

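Of the counts of called genes, those of 40 over 20 min, 20 over 5 min, 60 min over WT 90 min and 20 min over WT 90 min stayed within 1.5 times of the value reported under every alternative run. For 60 over 20 min, where 3 of the 81 genes were called, DESeq2 called 5, library totals in place of TMM factors 1 (SER3), the replicate block 7, the compared libraries alone 0, and the fit without the 11 tagged libraries of number 1 called 5. Leaving out 1 library gave 1 to 4. Pooling 40 to 60 min against 5 to 20 min, an alternative chosen after seeing the data, as was leaving out number 1, called 1 (AAC1). The median stayed between 0.21 and 0.33 in all of these. For 50 over 20 min the block gave 1, and for WT the compared libraries alone gave 2 (EMC6 and YLR342W-A). For the difference between strains, with 3 called, DESeq2 gave 6, library totals 0, the block 9, the compared libraries alone 5, the fit without tagged number 1 libraries 5, and leaving out 1 library 2 to 3. Apart from these counts, the block did not move a reported count by more than 1.5 times. The rule gave 64 to 131 genes without 1 library. The 9 genes at a lasting 1.5 times by 60 min became 38 at 1.25 times and 16 against the 20 min group alone. Among named genes, 316 alternative values stayed on the same side of the threshold, 17 lost a call, 2 gained one and 1 moved. Of the values with a call in either fit, 0 changed sign. Changes of sign without a call were not counted. SSA3 lost its call under the block, with library totals, without the filter, with the compared libraries alone and in the pooled comparison. It also lost it without the 11 tagged libraries of number 1, without number 1 or 2 at 20 min and without number 2 at 60 min. ATF1 lost its call with library totals, with the compared libraries alone and in the pooled comparison. ATF1 also lost it without number 1 or 2 at 20 min and without number 2 at 60 min. SER3 lost its call with the compared libraries alone and in the pooled comparison. The causes were not tested, beyond fewer libraries entering some fits. Depth limits the snoRNAs most, several of which stood below 10 CPM in single libraries.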

Other observations

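The 10 gene lists without a member and not described above moved in either direction between 60 and 20 min. Of 41 cell cycle genes, 5 were called lower and none higher, with a median log2 fold change of -0.54, against -0.18 in WT. Of 109 ribosome biogenesis genes, 1 was called lower and none higher, with a median of -0.33. Of the same 109, 74 were called lower than WT 90 min at 60 min, where 14.0% of all features were. The 28 mating and pheromone genes had a median of -0.40 with none called, and markers of this list differed between tagged libraries of number 1 and the others. Of 42 meiosis and sporulation genes, 1 was called higher and none lower (median 0.24). None was called among 21 trehalose and glycogen genes (0.32), 36 glucose-repressed carbon genes (0.17), 30 DNA damage genes (0.15), 41 autophagy and vacuolar protease genes (0.14), 21 multidrug resistance genes (0.07) and 30 iron regulon genes (-0.06).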
